A study of Mus musculus with 20 samples.

Results

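H3K27me3, the trimethyl mark that Polycomb proteins place on histone H3, was compared between wild type embryoid bodies (EB) and wild type embryonic stem (ES) cells, gene by gene, over all 20462 genes of the deposited H3K27me3 table. The comparison uses 2 of the 20 samples, 1 ChIP-seq library a side, so each ChIP value is a description with no test. The EB were TL1 mouse cells cultured as aggregates in ES medium without LIF, the cytokine that keeps ES cells undifferentiated, and they were dissociated with trypsin before fixation. The ES cells were the same TL1 line in medium with serum and LIF. Both groups were labelled wild type, and the time in EB culture is not given in the sources used here. A second pair, EB and ES cells in which CRISPR/Cas9 had depleted p150 (Chaf1a, the large CAF-1 subunit, a chaperone that deposits histones on replicated DNA), was set beside the wild type pair and is called the knockout. RNA-seq (2 libraries a group) and 1 H3K4me3 library a group gave 2 further readouts on the same genes. The 4 input libraries were not analysed here.

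H3K27me3 is written by Polycomb repressive complex 2 (PRC2), whose catalytic subunit is Ezh2 or Ezh1, and is bound by the Cbx proteins of Polycomb repressive complex 1 (PRC1). It marks genes that are held silent, above all regulators of lineages that a cell has not entered. In ES cells many such regulators carry it together with H3K4me3, the mark of active or poised promoters, and PRC2 is found mostly at CpG-rich promoters that are not transcribed.

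The smallest step between values was 0.04 in EB and 0.0267 in ES, and it was taken here as 1 read. That gave 4130691 reads over all genes in EB and 5372694 in ES, with a median of 39 reads a gene in EB and 62 in ES. The values grew with gene length (Spearman's rho of 0.627 in EB and 0.697 in ES across 18212 genes), so a gene is compared with itself between libraries, and levels of different genes are compared only per kb of RefSeq gene span. The median value was 1.56 in EB and 1.65 in ES, and the median log2 ratio of EB over ES, with 0.1 added to both values, was -0.03. RNA of marker genes was compared with limma, which over 15424 tested genes called 5577 higher in EB (36.2%) and 3823 lower (24.8%). Of these calls 59.3% were upward, or 46.3% after quantile normalization, under which the median RNA difference was -0.11 on the log2 scale in place of 0.12. The 5 ES markers summed to 103 and 177 FPKM in EB, against 2566 and 2502 in ES, and limma called all 5 lower. Of 12 germ layer, heart and blood markers 11 were called higher, with sums of 3585 and 2155 FPKM in EB against 10.8 and 7.9 in ES. The neural factor Pax6 was the exception, at a log2 difference of -0.22. Of 6 fibroblast or feeder markers 5 were called higher and Thy1 was called lower, with sums of 662 and 850 FPKM in EB against 5.4 and 8.6 in ES. These cell types move with every difference between EB and ES given here, and their part in it was not tested. Fewer cells that carry the mark and less of the mark per cell cannot be told apart in bulk chromatin.

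In EB, H3K27me3 stood far above its ES level on most genes that maintain pluripotency, and above it on most Hox, other homeobox and neural factor genes and on many signalling ligands, lists that were above the median gene in ES already. Genes on which it stood at least 2-fold below its ES level had RNA called higher in 766 of the 975 tested for RNA (78.6%). Over all 11542 tested genes of the H3K27me3 table, 41.7% were called higher. At 2-fold or more, 2409 genes (11.8% of all) were higher in EB and 1845 (9.02%) were lower. Of the 12368 genes whose EB and ES values averaged 1 or more, where counting error is smaller, 1832 (14.8%) were higher and 1157 (9.35%) lower. The differences upward were the larger ones, with 202 of these genes above a log2 ratio of 3, and Sccpdh (-3.30) and Tmed3 (-3.11) alone below -3. Hox genes, the pluripotency list and heart muscle genes fell in different places on the plot of EB against ES values.

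**Figure D1:**
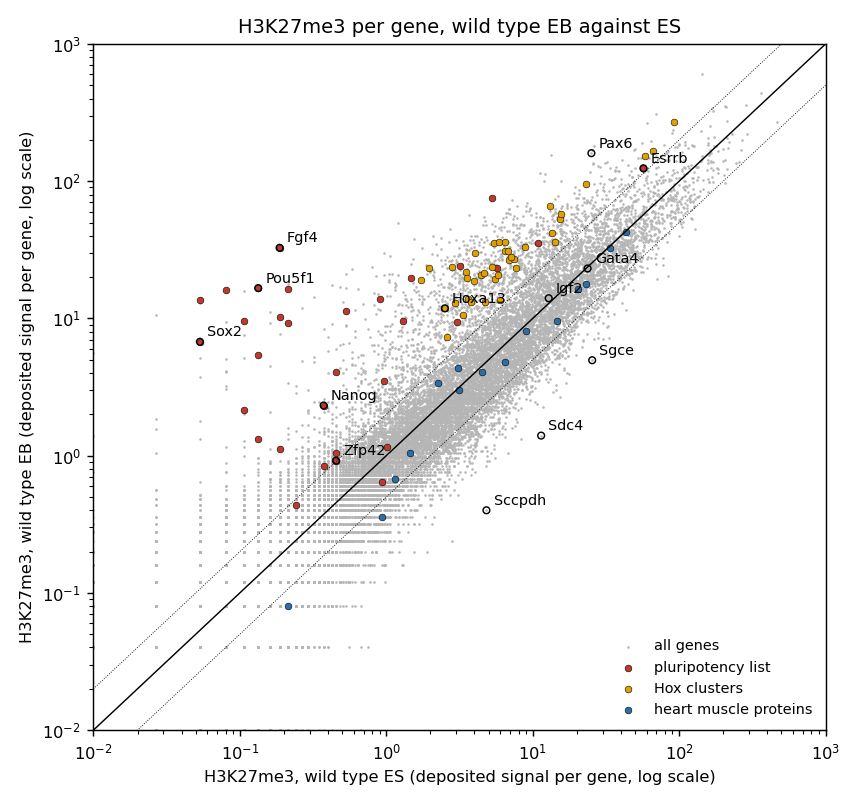
H3K27me3 signal per gene in wild type EB (vertical axis) against wild type ES (horizontal axis), 1 library each, both on log scales, with values under 0.01 drawn at 0.01, a solid line at equal values and dotted lines at 2-fold. Pluripotency genes such as Fgf4 (32.7 in EB, 0.187 in ES) lie far above the line, Hox genes above it, heart muscle genes near it, and Sccpdh (0.40 in EB, 4.83 in ES) below it.

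The promoters of 6 pluripotency genes are shown because RNA fell in all 6 while H3K27me3 differed between EB and ES by very different amounts. Fgf4, Klf2, Sox2 and Pou5f1 had 169 to 818 H3K27me3 reads in EB and 2 to 7 in ES, whereas Zfp42 had 23 reads in EB and 17 in ES and Tcl1 had 29 in EB and 38 in ES, with log2 ratios of 0.88 and 0.18 after 0.1 was added to both values. Without that addition Zfp42 was at a ratio of 2.03 (counting interval 1.04 to 4.04) and Tcl1 at 1.14 (0.681 to 1.91). These genes were chosen after their values were seen. Each sequence runs 5′ to 3′ from 250 bases before to 50 bases after the RefSeq start (GRCm38.p6), at chr7:144861136-144861435 (+ strand) for Fgf4, chr8:72318812-72319111 (+ strand) for Klf2, chr3:34649745-34650044 (+ strand) for Sox2, chr17:35505782-35506081 (+ strand) for Pou5f1, chr8:43306960-43307259 (- strand) for Zfp42 and chr12:105222688-105222987 (- strand) for Tcl1. Capitals mark each CG dinucleotide, which reads the same on both strands.
Fgf4: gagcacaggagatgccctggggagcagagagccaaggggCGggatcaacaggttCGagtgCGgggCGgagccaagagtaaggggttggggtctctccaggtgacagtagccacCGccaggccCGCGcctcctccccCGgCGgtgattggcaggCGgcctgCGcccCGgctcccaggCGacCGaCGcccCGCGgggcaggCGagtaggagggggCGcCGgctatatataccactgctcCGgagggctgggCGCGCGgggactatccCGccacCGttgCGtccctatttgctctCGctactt
Klf2: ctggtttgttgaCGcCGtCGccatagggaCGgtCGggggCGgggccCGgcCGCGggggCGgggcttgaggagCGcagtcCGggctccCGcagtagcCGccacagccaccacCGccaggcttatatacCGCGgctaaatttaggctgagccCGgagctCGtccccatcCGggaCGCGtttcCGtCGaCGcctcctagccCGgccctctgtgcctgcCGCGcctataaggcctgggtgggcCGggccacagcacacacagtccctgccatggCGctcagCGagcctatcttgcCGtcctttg
Sox2: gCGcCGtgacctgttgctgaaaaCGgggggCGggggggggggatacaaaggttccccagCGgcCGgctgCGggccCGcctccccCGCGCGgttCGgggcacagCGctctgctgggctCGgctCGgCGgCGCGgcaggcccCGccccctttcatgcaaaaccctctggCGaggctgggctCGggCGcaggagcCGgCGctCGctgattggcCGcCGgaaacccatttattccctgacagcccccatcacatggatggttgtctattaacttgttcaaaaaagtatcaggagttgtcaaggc
Pou5f1: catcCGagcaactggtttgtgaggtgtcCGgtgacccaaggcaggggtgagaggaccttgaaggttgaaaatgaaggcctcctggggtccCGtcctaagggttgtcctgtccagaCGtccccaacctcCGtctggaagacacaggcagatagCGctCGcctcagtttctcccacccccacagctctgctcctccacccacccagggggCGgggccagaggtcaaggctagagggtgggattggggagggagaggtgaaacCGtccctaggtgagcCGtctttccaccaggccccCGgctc
Zfp42: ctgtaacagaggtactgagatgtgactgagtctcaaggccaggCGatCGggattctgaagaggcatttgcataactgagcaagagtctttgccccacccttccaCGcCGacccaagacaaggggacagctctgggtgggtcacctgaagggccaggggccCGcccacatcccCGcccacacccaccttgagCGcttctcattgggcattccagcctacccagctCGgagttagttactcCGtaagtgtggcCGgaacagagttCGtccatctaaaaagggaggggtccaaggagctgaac
Tcl1: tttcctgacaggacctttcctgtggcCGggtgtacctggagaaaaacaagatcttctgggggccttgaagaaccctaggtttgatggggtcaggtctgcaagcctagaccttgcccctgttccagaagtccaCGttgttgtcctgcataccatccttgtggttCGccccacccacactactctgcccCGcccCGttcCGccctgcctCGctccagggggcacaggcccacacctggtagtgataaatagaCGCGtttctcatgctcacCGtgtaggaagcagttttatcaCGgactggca
Fgf4 has 28 CG dinucleotides in these 300 bases, Klf2 has 32 and Sox2 has 27, and all 3 promoters are CpG-rich, taken as a ratio of observed to expected CpG of at least 0.65 with a GC content of at least 55%. Pou5f1, Zfp42 and Tcl1 have 11 each and are not CpG-rich, so the CG count alone does not separate Pou5f1 from the other two. A CpG-rich promoter was listed for 5919 of 14486 genes with a RefSeq promoter (40.9%), and the median over those 14486 was 15 CG dinucleotides. RefSeq promoters matched 17 genes of the pluripotency list. The 12 of these with a log2 ratio of at least 3 had a median of 15.5 (from 2 to 40), and 5 were CpG-rich. The 5 below 3 had a median of 10 (from 4 to 11), and 0 were CpG-rich. The cut at 3 was not planned. It leaves Lin28a, Nanog and Esrrb in the lower group, although they passed 2-fold at log2 ratios of 2.605, 2.35 and 1.12. The 5 of 12 lie near the 40.9% of all promoters, so the contrast rests on the 5 genes below the cut.

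Of 32 genes in the pluripotency list, 27 had at least 2-fold more H3K27me3 in EB and 0 had 2-fold less, with a median log2 ratio of 2.90. The same list had RNA called lower in 32 of 32 members. Fgf4, a growth factor made by ES cells and an early target of Pou5f1 and Sox2, had a value of 32.7 in EB against 0.187 in ES (818 and 7 reads), a ratio of 175 with a 95% counting interval of 84.6 to 437. Pou5f1, the POU factor at the centre of the pluripotency network, had 16.6 in EB against 0.133 in ES (416 and 5 reads), a ratio of 125 (53.0 to 386). Its RNA was 35.3 and 65.9 FPKM in EB against 1298 and 1233 in ES, without overlap, a log2 difference of -4.68 ± 0.26 (SE, n = 2 libraries a group, limma, adjusted p = 3.16e-05). Sox2, the partner of Pou5f1, had 6.76 in EB against 0.0534 in ES, from 169 and 2 reads, a ratio of 127 (34.5 to 1055). The naive-state factor Klf2 had 13.7 in EB against 0.0534 in ES, from 343 and 2 reads, a ratio of 257 (70.6 to 2132). Utf1, a chromatin factor of undifferentiated cells, had 16.0 in EB against 0.080 in ES (401 and 3 reads), a ratio of 200 (68.1 to 976). All of these were close to empty of the mark in ES, so their ratios rest on a handful of ES reads, while the EB values rest on 169 to 818.

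Members of the list differed in their ES level. Esrrb, an orphan nuclear receptor, had 124 in EB and 57.0 in ES, a log2 ratio of 1.12, over a locus of 160512 bases. Nanog, the homeobox factor of the naive state, had 2.32 in EB and 0.374 in ES, a log2 ratio of 2.35 with 58 and 14 reads. The TGF-beta family members Nodal, Lefty1 and Gdf3 had log2 ratios of 5.71, 2.89 and 3.45, and the metabolic enzyme Tdh, threonine dehydrogenase, 4.18. With 0.1 added to both values, the 5 that did not pass 2-fold were Dppa3 at -0.48, Tcl1 at 0.18, Dppa2 at 0.67, Zfp42 at 0.88 and Dppa4 at 0.99. Zfp42, the zinc finger gene known as Rex1, had 0.92 in EB and 0.454 in ES, while its RNA was 12.9 and 23.4 FPKM in EB against 543 and 566 in ES. Its H3K4me3 was 7.55 in EB and 69.3 in ES. With values of at most 1.16 in EB these 5 genes were low in signal, and Zfp42 and Dppa4 pass 2-fold without the added 0.1, at ratios of 2.03 and 2.25.

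**Figure D2:**
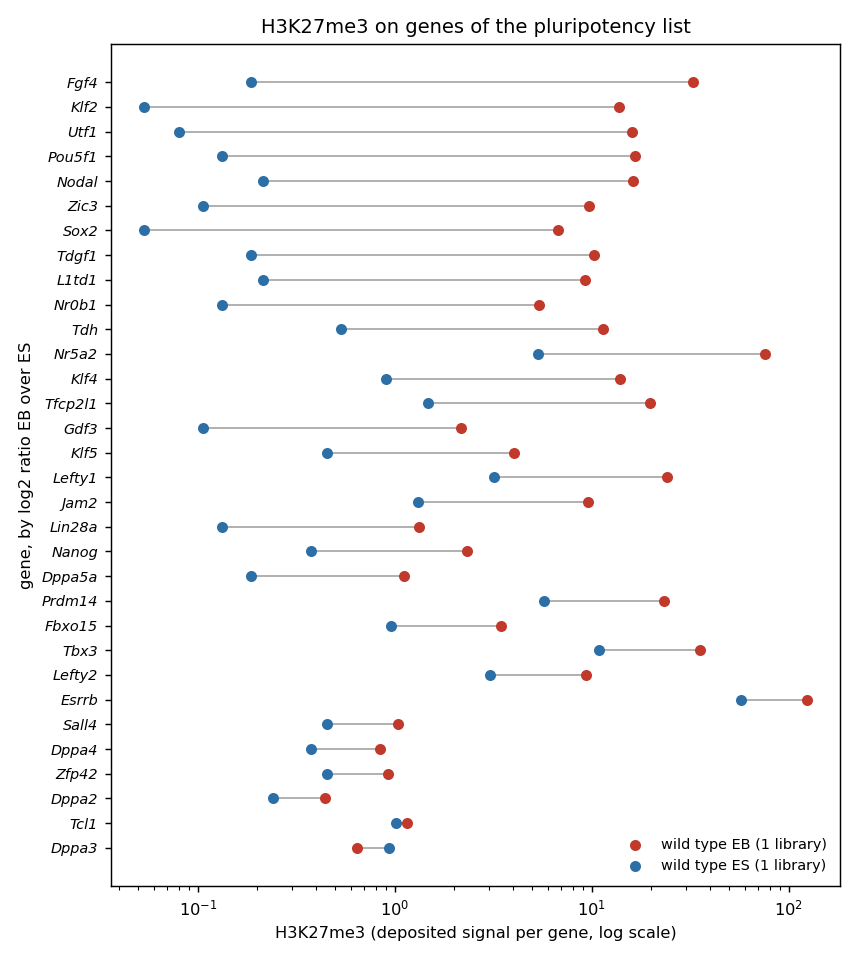
H3K27me3 signal (log scale) in wild type EB (red) and wild type ES (blue), 1 library each, for the 32 genes of the pluripotency list, sorted by ratio. The EB point lies right of the ES point in 31 of 32 genes, Dppa3 being the other one, and the ES points of Fgf4, Klf2, Utf1, Pou5f1 and Sox2 lie at 0.187 or less.

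Of the 12 largest ratios at a mean of 1 or more, the list above holds 7, and the other 5 were likewise nearly free of the mark in ES. These genes passed the mean of 1 through their EB value, and ranking by ratio favours a low ES value. Their low ES level therefore follows largely from how they were chosen. Chchd10, a mitochondrial protein, had 5.56 in EB (139 reads) and no read in ES, which is at least 69.5-fold higher when ES is set at a floor of 3 reads. Socs3, the feedback inhibitor of LIF and Stat3 signalling, had 9.48 in EB against 0.080 in ES (237 and 3 reads), a ratio of 118 (40.0 to 578), and its RNA was 5.99 and 8.10 FPKM in EB against 89.4 and 85.7 in ES. Zfp296, a zinc finger gene of ES cells, had 13.0 in EB against 0.0534 in ES (326 and 2 reads). B3gnt7, a glycosyltransferase, had 18.0 in EB and 0.213 in ES. Rbmxl2, an RNA-binding protein known from the testis, had 15.9 in EB and 0.107 in ES. All 12 had RNA called lower in EB by limma. H3K4me3, which over 20437 genes was 2-fold higher in EB in 9.27% and lower in 10.9%, was less uniform over these 12 genes, with log2 ratios from -1.93 for Pou5f1 to 0.44 for Socs3, 3 of them 2-fold lower and 0 higher.

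Developmental transcription factors also had more H3K27me3 in EB. All 39 measured Hox genes, which assign positional identity along the body axis, were at least 2-fold higher, with log2 ratios from 1.17 to 3.51 and a median of 1.97. The cluster medians were 2.15 for Hoxa, 1.86 for Hoxb, 1.95 for Hoxc and 1.97 for Hoxd. Hoxc11 had 23.2 in EB and 1.95 in ES, and Hoxa13 had 11.8 in EB and 2.51 in ES. RNA of 21 Hox genes was tested, and all 21 were called higher, among them Hoxa13, with 3.09 and 4.33 FPKM in EB against 0.0862 and 0 in ES. Unlike the pluripotency genes, Hox genes carried the mark in ES, with a median of 1.74 per kb there and 6.66 per kb in EB. That ES median compares with 0.0950 per kb over all genes and with 0.113 per kb over 1115 olfactory receptor genes, of which 1 passed the RNA filter. High levels in this EB library were not particular to Hox genes. At 4 per kb or more there were 384 genes in wild type EB, 5 in wild type ES, 8 in knockout EB and 5 in knockout ES. The part of this in the Hox ratios was not tested.

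Other homeobox genes behaved alike, with 75 of 88 at least 2-fold higher, 0 lower and a median of 1.85. Gbx2, which patterns the midbrain and hindbrain boundary and is also active in ES cells, had 36.1 in EB and 2.67 in ES, with RNA of 1.78 and 0.985 FPKM in EB against 53.5 and 66.5 in ES. Nkx2-1, a thyroid, lung and forebrain factor, had 51.6 in EB and 4.72 in ES. Pax6, the eye and forebrain factor, had 160 in EB and 25.2 in ES, a log2 ratio of 2.66. Of 38 neural factors 27 were higher and 0 lower, with a median of 2.16, among them Olig2 of motor neuron and oligodendrocyte progenitors (37.3 in EB, 3.71 in ES). Gli1, a target and mediator of Hedgehog signalling, had 13.2 in EB and 0.507 in ES. Of 14 endoderm factors 10 were higher and 0 lower, with a median of 1.39, and of 32 measured mesoderm and heart factors 15 were higher and 0 lower, with a median of 0.97.

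The endoderm and mesoderm factors divided by how much the mark differed. They also differed in length, with Gata4 at 72799 bases and Gata6 at 33127. The other factors named here from these lists ran from 3435 bases for Hand1 to 9693 for Tbx1. The part of length in this division was not tested. Foxa2, a pioneer factor of endoderm and floor plate, had 32.9 in EB and 4.59 in ES, and Sox17 of definitive endoderm had 30.6 in EB and 8.56 in ES. Gata4 was level, with 23.1 in EB and 23.7 in ES, and so was Gata6, with 20.8 in EB and 17.8 in ES. Both are factors of heart and primitive endoderm, and their RNA rose to between 57.7 and 70.6 FPKM in EB, against less than 1 FPKM in each ES library. Hand1, a heart and trophoblast factor, had 20.6 in EB and 6.06 in ES, T, the primitive streak factor brachyury, had 24.4 in EB and 11.8 in ES, and Tbx1 of the pharyngeal heart field had 69.5 in EB and 9.07 in ES. Tcf15, a mesoderm factor that is also expressed in ES cells, had the largest ratio of the mesoderm list, with 30.1 in EB and 0.960 in ES. In the formative and primed epiblast list 9 of 16 were higher and 0 lower, led by Foxd3 (28.6 in EB, 1.07 in ES), with RNA of 0.972 and 2.48 FPKM in EB against 66.4 and 62.5 in ES.

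**Figure D3:**
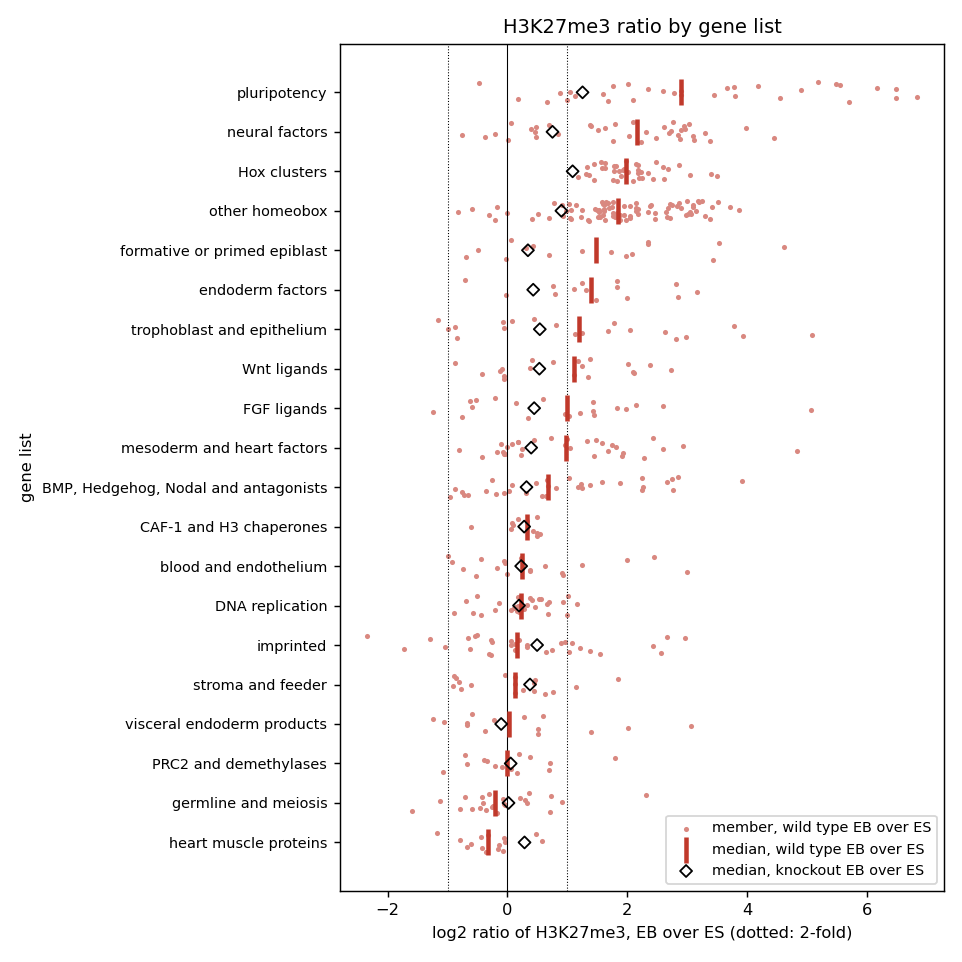
log2 ratio of H3K27me3 in EB over ES for the members (dots) of 20 of the 26 gene lists, with the list's median in the wild type pair (red bar) and in the knockout pair (open diamond). The wild type medians run from 2.90 for pluripotency to -0.32 for heart muscle proteins, and for the top lists the knockout diamond lies left of the wild type bar.

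Ligands of the signalling pathways that steer early lineages also had more of the mark in EB. Of 19 Wnt ligands 10 were 2-fold higher and 0 lower, with a median of 1.11. Wnt1, of the midbrain and dorsal neural tube, had 60.6 in EB and 8.99 in ES, and Wnt7b had 133 in EB and 25.6 in ES. Of 20 FGF ligands 10 were higher and 1 lower. Fgf17 had 22.9 in EB and 0.587 in ES, with RNA of 0.262 and 0.622 FPKM in EB against 26.96 and 33.5 in ES. The lower one was the muscle ligand Fgf6, with 4.88 in EB and 11.7 in ES. Of 33 BMP, Hedgehog and Nodal pathway genes and antagonists 15 were higher and 0 lower, led by the activin subunit Inhbb (56.3 in EB, 3.66 in ES) and followed by Dhh, a Hedgehog ligand (65.7 in EB, 9.02 in ES). Of 16 Notch pathway genes 6 were higher and 1 lower, the effector Hey2, with 2.16 in EB and 5.58 in ES. The receptor Notch1 had 36.8 in EB and 3.36 in ES, while its RNA of 13.3 and 13.6 FPKM in EB overlapped 10.6 and 16.5 FPKM in ES.

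Several epithelial genes had more H3K27me3 in EB without less RNA. Of 20 genes in the trophoblast and epithelium list 11 were higher and 1 lower, with a median of 1.19. Cldn4, a tight junction claudin, had 5.12 in EB and 0.0534 in ES (128 and 2 reads), a ratio of 96.0 (26.03 to 801). Its RNA was 53.0 and 66.7 FPKM in EB against 53.7 and 68.8 in ES, a log2 difference of -0.03 ± 0.23 (SE, limma, adjusted p = 0.92). Epcam, an epithelial adhesion molecule, had 15.0 in EB and 0.880 in ES, with an RNA difference of -0.20 ± 0.12 (adjusted p = 0.189). Cldn6 had 14.6 in EB and 1.76 in ES, while its RNA rose to 192 and 163 FPKM in EB, against 32.6 and 29.7 in ES. E-cadherin (Cdh1) had 29.5 in EB and 2.05 in ES, with RNA called lower at -0.98. The lower member was the keratin Krt18, with 2.2 in EB and 5.02 in ES and RNA called higher in EB.

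The losses were smaller and did not gather in the lists of developmental regulators. The 12 smallest ratios ran from -3.30 to -2.33. Sccpdh, a dehydrogenase-like protein, had 0.40 in EB and 4.83 in ES (10 and 181 reads), a ratio of 0.0828 (0.0391 to 0.156), and its RNA was 22.7 and 22.6 FPKM in EB against 8.74 and 5.60 in ES, a log2 difference of 1.56 ± 0.21 (SE, n = 2 libraries a group, limma, adjusted p = 0.000567). Tmed3, of the vesicle trafficking p24 family, had 0.24 in EB and 2.83 in ES, and its RNA was 22.6 and 21.9 FPKM in EB against 2.47 and 1.72 in ES. The surface proteoglycan Sdc4 had 1.40 in EB and 11.4 in ES, the sorting nexin Snx33 had 1.04 in EB and 6.78 in ES, and Vezf1, a zinc finger factor of blood vessels, had 0.960 in EB and 5.50 in ES. Gramd3 had 2.68 in EB and 15.3 in ES, and Smpd1, acid sphingomyelinase, had 0.20 in EB and 1.89 in ES. Sgce, an imprinted sarcoglycan gene expressed from the paternal allele, had 4.96 in EB and 25.5 in ES, and its RNA was 24.9 and 23.9 FPKM in EB against 0.422 and 1.33 in ES. All 12 had RNA called higher in EB by limma, although the call ended when 1 library was left out for Sdc4 (adjusted p up to 0.246, without the second wild type ES library) and Cpt2 (up to 0.0969, without the first wild type EB library). H3K4me3 was above its ES value in 12 of the 12 and at least 2-fold higher in 7, against 9.27% of 20437 genes.

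Differentiation genes with large RNA increases did not all have less of the mark. All 15 heart muscle protein genes had RNA called higher in EB (median log2 difference of 6.72), against 41.7% of all tested genes. The H3K27me3 ratios of these 15 had a median of -0.32, with 0 genes 2-fold higher and 1 lower, Pln. Myl4, the atrial myosin light chain, had 9.56 in EB and 14.7 in ES, while its RNA was 520 and 337 FPKM in EB against 3.53 and 2.29 in ES. The ES level of this list was modest, at a median of 0.356 per kb, against 0.232 per kb in EB. Of 20 blood and endothelium genes 4 were higher, Sox18, Klf1, Gata2 and Tal1, and 0 lower, and all 20 had RNA called higher. Of 18 stroma and feeder genes 2 were higher, Thy1 and Vim, and 0 lower, with Col1a2 at 6.6 in EB and 12.5 in ES. Igf2, the imprinted fetal growth factor, had 14.04 in EB and 12.9 in ES while its RNA was 2923 and 2982 FPKM in EB against 2.22 and 3.50 in ES. Nes, the intermediate filament of neural progenitors, had 21.1 in EB and 27.5 in ES.

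Polycomb genes carried little of the mark themselves, with some exceptions. The 14 measured genes of PRC2 and the H3K27 demethylases had a median ratio of -0.01 and a median level of 0.0248 per kb in EB and 0.0202 in ES. Ezh2 had 1.76 in EB and 2.05 in ES, a log2 ratio of -0.21, and its RNA of 57.7 and 53.7 FPKM in EB stood beside 57.2 and 70.1 in ES. RNA was called lower for Eed, Suz12, Jarid2 and Mtf2 among others, 6 of 14 in all, and higher for 3. Phf19, a PRC2 accessory subunit, was the 1 gene that was 2-fold higher, with 27.2 in EB and 7.79 in ES, and Ezh1 the 1 that was lower, with 1.24 in EB and 2.72 in ES. In PRC1 the Cbx genes diverged. Cbx7, the main Cbx protein of ES cells, had 9.28 in EB and 0.160 in ES (232 and 6 reads), and its RNA was 8.09 and 15.1 FPKM in EB against 115 and 127 in ES. Cbx2 went the other way, with 1.32 in EB and 4.03 in ES and RNA of 34.2 and 35.6 FPKM in EB against 11.9 and 9.42 in ES. Yaf2, another PRC1 subunit, had 2.96 in EB and 9.82 in ES with RNA of 33.6 and 37.5 FPKM in EB against 1.34 and 1.96 in ES.

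Of 32 measured imprinted genes 9 were at least 2-fold higher and 4 lower, the second count being near the 9.02% of all genes. The higher ones included the placental regulators Phlda2 (5.76 in EB, 0.827 in ES) and Ascl2 (19.6 in EB, 3.23 in ES), the cell cycle inhibitor Cdkn1c (23.6 in EB, 4.32 in ES) and the thyroid hormone deiodinase Dio3 (27.1 in EB, 3.36 in ES). The 4 lower ones were Sgce, its neighbour Peg10, Usp29 and Snrpn. Of 10 cell cycle inhibitors 5 were higher and 0 lower, and Cdkn2a, the locus of p16 and p19, had 66.7 in EB and 30.7 in ES. Of 28 neuronal channel and receptor genes 7 were higher and 1 lower, with a median of -0.16. The higher ones included Tubb3, a neuronal tubulin (20.8 in EB, 0.960 in ES), and Stmn2 (18.0 in EB, 2.69 in ES), whose RNA was 11.4 and 9.16 FPKM in EB against 223 and 205 in ES. Of 24 germline genes 1 was higher, Tdrd12, and 2 were lower, Slc25a31 and Rec8. Of 14 visceral endoderm products 3 were higher and 2 lower, Fga and Ttr.

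Housekeeping groups stayed near background. None of 11 CAF-1 and histone chaperone genes passed 2-fold in either direction, and Chaf1a had 0.92 in EB and 0.8 in ES, with 23 and 30 reads. Of 28 DNA replication genes 2 passed, Gins3 and Rfc4, and of 15 measured glycolysis genes 2 passed, Pfkp and Slc2a3, all of them higher in EB. Of 64 ribosomal protein genes 17 passed upward, but their medians were 4 reads in EB and 3 in ES, too few to read. Gapdh had 6 reads in EB and 4 in ES, and Actb had 5 in EB and 1 in ES.

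RNA was set beside the mark in the 11542 genes of the table that limma tested. Of these 41.7% were called higher in EB and 25.1% lower. Among genes with 2-fold higher H3K27me3, 23.2% of 1577 tested had RNA called higher and 48.1% lower, with a median log2 difference of -0.47. Among genes with 2-fold lower H3K27me3, 78.6% of 975 had RNA called higher and 3.18% lower, with a median of 1.44. Genes within 2-fold gave 41.0% higher and 23.5% lower. The shares moved in steps with the ratio in genes with a mean of at least 1. Of the 7044 tested genes past that filter 51.3% were called higher and 20.05% lower. At a log2 ratio over 3, 14.9% of 148 tested genes had RNA called higher and 68.9% lower, and at -2 or less 100% of 44 had RNA called higher. Spearman's rho between the ratio of the mark and the RNA difference was -0.451 across 7044 genes, which share libraries and are not independent replicates.

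**Figure D4:**
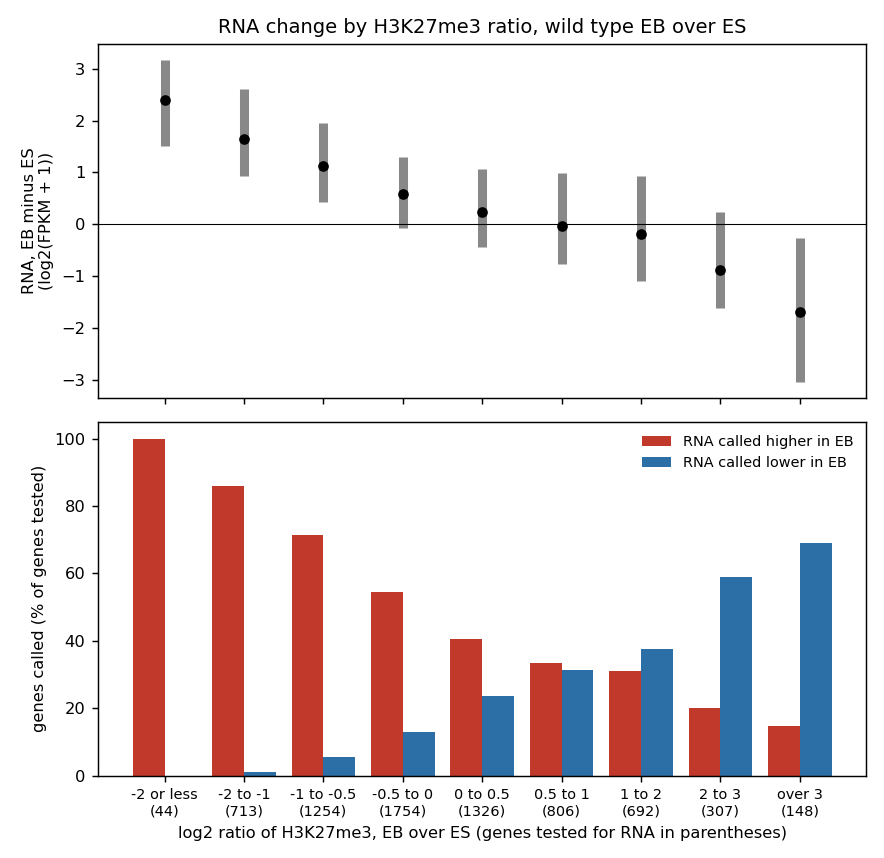
RNA difference, EB minus ES, by bin of the log2 ratio of H3K27me3, for genes with a mean H3K27me3 value of at least 1. The upper panel gives the median (dot) and the quartiles (bar), and the lower panel gives the share of tested genes that limma called higher (red) or lower (blue) in EB. The median runs from 2.40 in the lowest bin to -1.70 in the highest.

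Not every gene followed that order. With a mean of at least 1, 1147 genes with 2-fold higher H3K27me3 were tested for RNA. Of these, 299 (26.1%) had RNA called higher and 543 (47.3%) lower, against 51.3% and 20.05% of all 7044 tested genes past that filter. Of the 299, 70 were on the lists of developmental transcription factors, against 11 of the 543. A factor silent in ES could be tested only through EB, so it could hardly fall among the 543. The share of list members over all tested genes was not counted. The 299 had a median of 2.83 per kb in EB and 0.865 in ES, whereas the 543 had 0.551 per kb in EB and 0.0896 in ES. H3K4me3 was 2-fold higher in 165 of the 299 and lower in 4, and it was higher in 11 and lower in 148 of the 543. Over all genes with a mean of at least 1 it was higher in 13.01% and lower in 13.22%. Hand1 belonged to the first set, with RNA of 91.3 and 68.7 FPKM in EB against 1.02 and 0.293 in ES and H3K4me3 of 22.01 in EB and 4.48 in ES. So did Foxa2, with RNA of 20.8 and 21.8 FPKM in EB against 0.459 and 0.116 in ES, and Cdkn1c, with 587 and 581 FPKM in EB against 17.8 and 31.1 in ES. A pool of expressing and non-expressing cells and both marks in the same cells cannot be told apart here. The opposite case, 2-fold less H3K27me3 with RNA called lower, held 7 of 757 tested genes.

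The H3K4me3 ratio was also set against the classes of H3K27me3. Over all 20437 genes H3K4me3 was 2-fold higher in EB in 9.27% and lower in 10.9%. In genes with 2-fold higher H3K27me3 it was higher in 16.8% and lower in 14%. In genes with 2-fold lower H3K27me3 it was higher in 20.3% and lower in 6.89%. The lists differed. In Hox genes 33 of 39 had 2-fold more H3K4me3 as well, with a median log2 ratio of 1.65, and in other homeobox genes 62 of 88. In the pluripotency list 21 of 32 had 2-fold less H3K4me3 and 0 had more, with a median of -1.74.

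More genes reached high per-kb levels in EB. Of 18212 genes with a RefSeq span, 1340 stood at 1 per kb or more in EB and 639 in ES, and the 571 shared genes were 42.6% of the EB set and 89.4% of the ES set. At 2 per kb or more there were 726 genes in EB and 76 in ES, and at 4 or more there were 384 in EB and 5 in ES. The knockout libraries had 8 genes at 4 or more in EB and 5 in ES. With 1 library a group, a difference between cells and one between libraries cannot be told apart. The 1000 genes with the highest level held 19.6% of the reads over genes in wild type EB and 8.64% in wild type ES. In knockout EB and knockout ES they held 10.6% and 8.25%. The 200 genes with the highest value, not divided by length, held 17.9% in wild type EB and 18.4% in wild type ES. Reads were therefore not more concentrated in wild type EB by that measure. The highest level in EB was that of LOC547349, an entry of no named gene (18.1 per kb in EB, 9.88 in ES). It was followed by Ucn, a neuropeptide of the corticotropin-releasing family (17.7 per kb in EB, 1.71 in ES), the neural repressor Scrt1 (16.9 in EB, 2.01 in ES), Fam43b (15.8 in EB, 1.65 in ES), the heat shock gene Hspa1a (15.8 in EB, 2.16 in ES) and Wnt1 (15.2 in EB, 2.26 in ES).

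**Figure D5:**
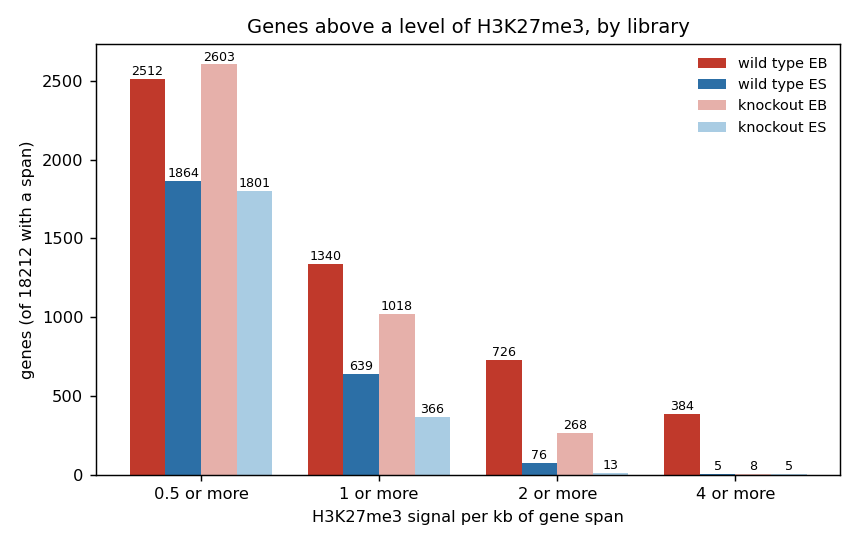
Number of genes at or above 4 levels of H3K27me3 signal per kb of gene span, in 1 library each of wild type EB, wild type ES, knockout EB and knockout ES. At 4 per kb or more the wild type EB library has 384 genes and the other 3 libraries have 5 to 8.

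The knockout pair shows how far the wild type pattern was shared. It had 1556 genes 2-fold higher in EB (7.6%) and 318 lower (1.55%). Of the 2409 genes higher in the wild type pair, 946 (39.3%) were also higher in the knockout pair, where they made up 60.8% of the genes, and 2247 had a ratio of the same sign. Of the 1845 lower in wild type, 112 (6.07%) were also lower in the knockout pair, 35.2% of its lower genes. A ratio of the same sign was found in 1388 of the 1845. Both pairs have their own EB and ES libraries, and the difference between them was not tested, with 1 library a group. Over all 20462 genes the wild type ratio exceeded the knockout ratio in 8760, with medians of -0.03 and 0.09. In the pluripotency list it did so in 31 of 32 genes, with medians of 2.90 and 1.25. Pou5f1 had log2 ratios of 6.16 in wild type and 3.45 in knockout, with 2.45 in knockout EB and 0.133 in knockout ES. All 39 Hox genes had the larger ratio in wild type, with medians of 1.97 and 1.09, and 24 of them passed 2-fold in the knockout pair. The wild type EB library had a larger step and fewer reads than the other 3 H3K27me3 libraries (4130691 against 5372694 to 5959392), and the part of this in the difference between the pairs was not tested.

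The calls varied with gene length. Of genes of 2 to 5 kb 24.01% were 2-fold higher in EB and 8.38% lower, and of genes over 300 kb 1.62% were higher and 11.1% lower. The median length was 10.04 kb in the higher class and 18.3 kb over all genes, and the part of length in the counts of short genes such as the Hox genes was not tested. The median log2 ratio was 0.25 for genes of 2 to 5 kb and -0.44 for genes over 300 kb, and it was 0.37 and -0.31 in the knockout pair. CpG-rich promoters made up 46.7% of genes with 2-fold higher H3K27me3, 40.7% of those within 2-fold and 35.2% of those lower, against 40.9% of all. With a mean of at least 1 the lower class had 44.5%, against 41.9% of all genes past that filter, so it was no longer below. Chromosome medians ran from -0.37 on X to 0.20 on chromosome 15, and 135 of 742 X-linked genes (18.2%) were 2-fold lower in EB. Of 329 vomeronasal receptor genes 80 were 2-fold lower and 2 higher, on medians of 3 reads in EB and 6 in ES.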

How the data were processed

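The authors deposited H3K27me3 and H3K4me3 ChIP-seq as a signal per gene, named RPKM on promoters in the table titles, with no window stated. At least 99.99% of values in each library lay within 0.02 steps of a multiple of its smallest step, and they grew with gene length. They were therefore taken as reads scaled per library and not per kb. Because 1 library a group allows no test, no count model was run on these reads. Ratios are log2((EB + 0.1)/(ES + 0.1)), and 2-fold was the call. Intervals are exact conditional binomial 95% intervals of recovered reads (scipy 1.17.1, Python 3.11.15) and cover counting error only.

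The deposited RNA table holds FPKM, with Cufflinks column names per the file headers. The submitters' processing notes list DESeq2, HTSeq, Bowtie2, Cufflinks 2.2.1 and STAR 2.6.0a and the mm10 build, without saying what each was used for. Column totals ran from 641612 to 781876 FPKM and the depth is unknown. Genes that reached 1 FPKM in 2 or more of the 8 libraries were taken to log2(FPKM + 1) and fitted with limma 3.58.1 (R 4.3.3), 4 group means, eBayes with trend, two-sided, Benjamini-Hochberg adjustment over 15424 genes, calls under 0.05. The labels do not say whether replicates were separate cultures, so p-values reflect only the spread between libraries, which may be technical. The fit was checked on simulated data.

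Per kb levels use the RefSeq gene span (GRCm38.p6), found for 18212 genes (89.0%), since 1593 loci of the RNA table were over 1.5 times that span. RefSeq promoters matched 14486 genes (70.8%), and the first listed one was used. Dates stood in place of 25 gene names of the ChIP data and were left as they are, and 8 listed genes had no row. Antisense and overlapping genes cannot be told apart in ChIP reads.

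The members and the 26 gene lists were chosen with earlier results of these data known, so lists are described by counts and medians with no test. Named genes are the 12 largest and 12 smallest ratios with a mean of at least 1, up to 4 members of each list by size of ratio, and 21 anchors, 137 in all. Genes outside this rule are named where a count is small or a group is described, and those were chosen after their values were seen. Some named genes are not reported here.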

Additional observations from a re-analysis of the deposited data

Results flagged for a closer look

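In 4 genes with a mean of at least 1 in both pairs, H3K27me3 differed 2-fold or more between EB and ES in opposite directions in the wild type and the knockout pair. Each rests on 1 library a group, and the difference between the pairs was not tested. Ldhb, a lactate dehydrogenase subunit, had a log2 ratio of 1.23 in wild type (1.64 in EB, 0.640 in ES) and -1.05 in knockout (0.694 in EB, 1.55 in ES). Tnfrsf1a, a receptor of tumour necrosis factor, stood at -1.03 in wild type (3.76 in EB, 7.79 in ES) and 1.18 in knockout (10.4 in EB, 4.54 in ES). The zinc finger gene Zfp872 stood at -1.08 in wild type (5.20 in EB, 11.1 in ES) and 1.03 in knockout (2.83 in EB, 1.33 in ES). Zfp768, of the same family of factors, stood at -1.28 in wild type (0.720 in EB, 1.89 in ES) and 1.16 in knockout (1.73 in EB, 0.720 in ES).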

How the results depend on the processing

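Read against the deposited scale, centring the ratios on their median or quantile normalization kept both wild type counts within 1.5 times, and the upward share was 60.3% and 50.5%, against 56.6%. Counts in the wild type pair depended on which genes entered. With genes of a span under 10 kb, 1094 were 2-fold higher and 542 lower, or 1078 and 480 by the loci of the RNA table, an alternative chosen after seeing the data. In spans under 2, of 2 to 5 and of 5 to 10 kb, 8.88%, 24.01% and 19.3% were higher. The lower shares there were 9.09%, 8.38% and 8.7%. Over all genes 11.8% were higher and 9.02% lower. A pseudocount of 0.5 left 862 lower. A mean of at least 1 left 1157 lower, which is 9.35% of the 12368 genes past that filter. The knockout counts, whose alternatives were chosen after seeing the data, were 762 higher and 73 lower with a pseudocount of 0.5, and 938 higher and 134 lower with a mean of at least 1. The same 2 settings gave 25.9% and 26.1% of tested genes with RNA called higher in the class with more H3K27me3. In the class with less of it they gave 89.5% and 86.7% higher and 0.69% and 0.92% lower. Over all tested genes with a mean of at least 1, 51.3% were called higher and 20.05% lower. With any listed promoter in place of the first, 50.4% of the higher and 38.7% of the lower class were CpG-rich, against 43.8% of all. With the first promoter and a mean of at least 1, 44.5% of the lower class were, against 41.9% of all genes past that filter. The settings for RNA shares and promoters were chosen after seeing the data. The order of the classes held for RNA. The share of CpG-rich promoters in the lower class passed from below to above that of all genes with a mean of at least 1. Of 75 list medians 63 stayed within 0.5 on the log2 scale and 12 moved further, with no 2-fold median changing sign, among them pluripotency at 2.36 with a pseudocount of 0.5 and 4.18 with spans under 10 kb. No 2-fold ratio of a named gene changed sign, but a pseudocount of 0.5 lowered the largest ratios, to 5.60 for Fgf4, 4.69 for B3gnt7, 4.68 for Klf2, 4.61 for Zfp296, 4.56 for Nodal, 3.71 for Sox2 and 3.59 for Chchd10. RNA calls ranged from 4180 to 5572 higher and from 3051 to 3819 lower when each library was left out in turn. Quantile normalization moved the RNA median from 0.12 to -0.11. Of 97 named genes with an RNA call, 13 lost it without a single library. No paired analysis was possible because the labels number only the second library of each RNA group and the ChIP groups have 1 library. Low ES read numbers limit the largest ratios, and no difference of H3K27me3 has a replicate.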
